A study of Mus musculus with 4 samples.

Results

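Microglia are the resident macrophages of the brain, and the genes described here are 35 that mark them or serve their immune functions. They were listed by name: the chains of complement C1q, receptors for chemokines, nucleotides and growth factors, immunoreceptors with their adaptors, lysosomal proteins and transcription factors. A gene was measured where a row of the array table carried its symbol alone. This held for 34 of the 35 genes, with 1 row each, out of 19938 genes in the series. Lyn, a Src-family kinase, was not analysed here.

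The RNA came from ICR mice that, by the methods, were 1 month old at the start and received a daily intraperitoneal injection for 3 months. The groups were ketamine at 30 mg/kg, a dose below the anesthetic one, and the same volume of normal saline, with 2 arrays each. By the methods, the samples were drawn at random from each group after testing in a water maze. Ketamine blocks the NMDA type of glutamate receptor. The labels give female mice and the methods male mice, and both give the tissue as prefrontal cortex. For each array, the sample title and the source name contradict each other on the treatment. Groups follow the titles here, as ketamine-titled and saline-titled arrays, and with the source names every direction would be the reverse.

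Microglia depend on the receptor encoded by Csf1r, which has CSF1 and IL-34 as ligands, and they survey the tissue through P2RY12 and the fractalkine receptor CX3CR1. C1q, TREM2 with its adaptor TYROBP, and the Fc receptors take part in tagging and engulfing synapses and debris. TGF-beta signaling and the transcription factors PU.1 (encoded by Spi1), IRF8, RUNX1 and SALL1 maintain the microglial state. Expression is given as deposited log2 values of the RMA method, so that 1 unit is a doubling.

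The tissue of the 2 groups did not match by regional markers. All 12 measured cerebellar markers were higher on the ketamine-titled arrays and all 10 measured forebrain neuron markers lower (adjusted p under 0.05 in limma). Of all rows, 23.4% were higher and 9.71% lower. Both lists were chosen with earlier results of these data known. Cbln3, a cerebellin of cerebellar granule cells, read 11.13 and 11.17 on the ketamine-titled arrays, against 5.75 and 4.52 on the saline-titled arrays. Tbr1, which specifies projection neurons of the cortex, read 3.73 and 3.69 on the ketamine-titled arrays, against 8.37 and 8.44 on the saline-titled arrays. The log2 of the summed level of the cerebellar list was 13.98 and 13.87 under the ketamine title, against 10.63 and 10.16 under the saline title, and that of the forebrain list 9.68 and 10.20 under the ketamine title, against 12.81 and 12.79 under the saline title. For each result below, treatment and region of the brain cannot be told apart. Over the 21789 rows tested, 33.2% passed limma, 2115 lower and 5109 higher, and the median log2 difference was 0.13. After quantile normalization 3074 rows were lower and 3311 higher with a median of 0.013, and with array medians set to zero, called centring below, 3213 were lower and 3210 higher.

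Of the 34 measured microglial genes, 27 were lower on the ketamine-titled arrays, 1 was higher and 6 did not pass an adjusted p of 0.05 in limma. Of all rows tested, 9.71% were lower and 23.4% higher by the same test. Of the 19 genes at or above the median level of all rows (5.99), 18 were lower and 1 was higher. Of the 15 below it, 9 were lower and 6 did not pass. Of 10895 rows at or above that level, 1339 were lower and 3060 higher, and of 10894 below it, 776 and 2049. The part of signal level in the calls was not tested. The microglial genes were chosen with earlier results of these data known. The log2 differences (ketamine-titled minus saline-titled) had a median of -0.74, with the middle of the genes between -0.93 and -0.40 and the extremes at -1.06 for Laptm5 and 0.70 for Itgb5. The groups did not overlap for 29 genes that were lower and 2 that were higher, against 21.5% and 48.4% of all rows. A lower value in whole tissue can come from fewer microglia or from less RNA per cell, which cannot be told apart here.
By size, 27 genes were lower by more than 1.3-fold and 1 was higher, against 9.87% and 24.3% of all rows. Past 2-fold there were 4 lower, namely Laptm5, Selplg, C1qb and Cd53, and 0 higher, against 2.98% and 3.69%. With 2 arrays against 2 an exact two-sided permutation test cannot give a p under 0.333, and nothing in the labels says whether an array stands for 1 mouse or for several. Without ketamine-titled array 1, or without array 2, limma passed none of these genes and no row of the table. The median difference over these genes was then -0.59 and -0.87. Without saline-titled array 1 or array 2, it was -0.70 and -0.78. Without either ketamine-titled array, no call given below for a single gene or a list passed.

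**Figure D1:**
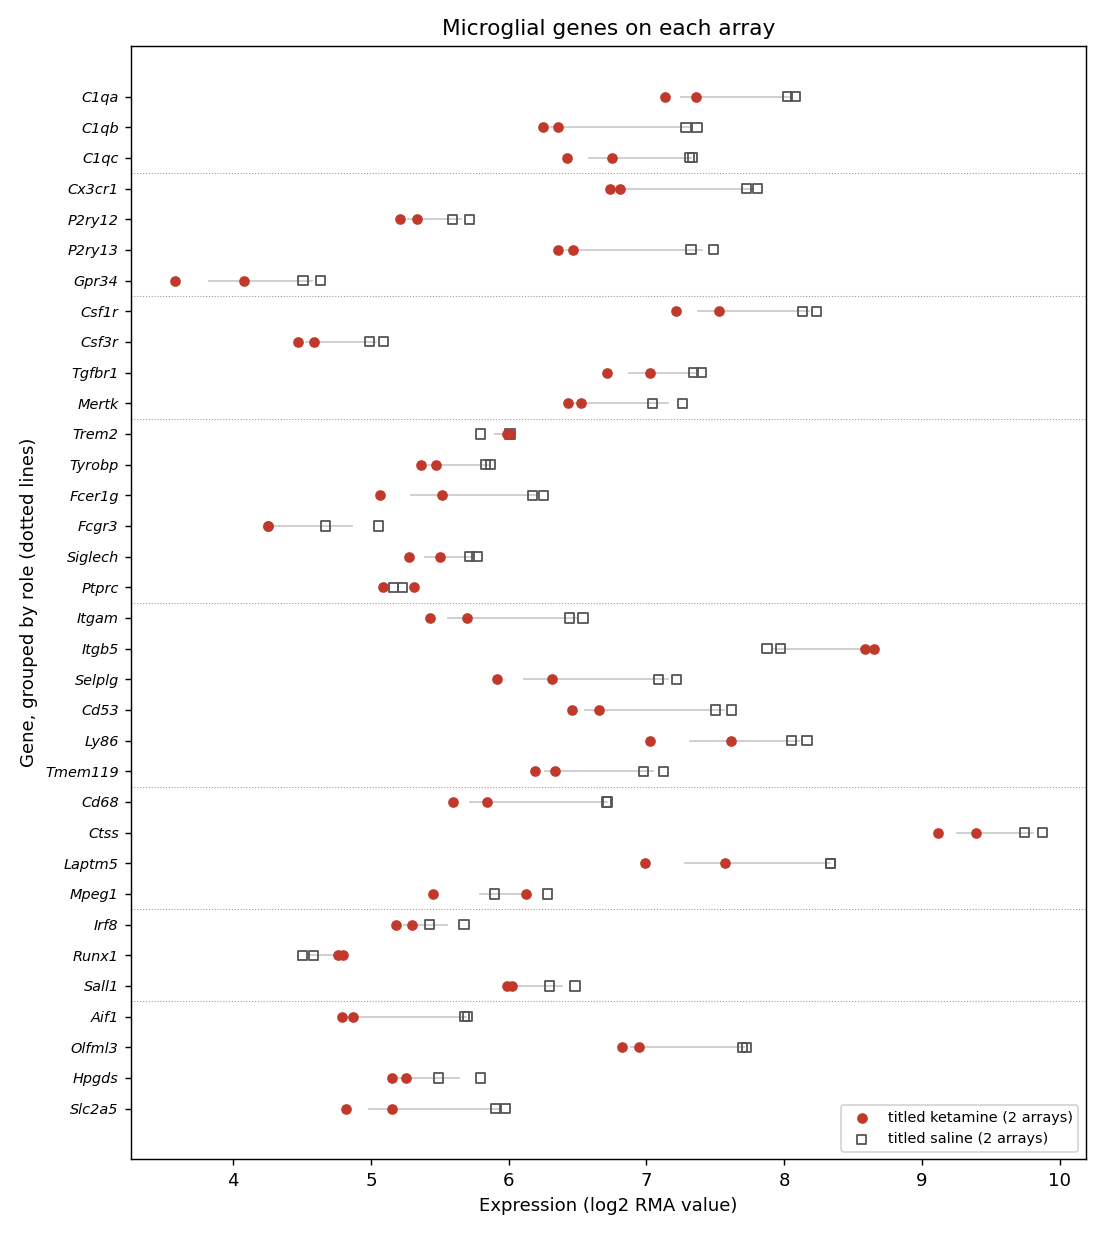
Log2 expression (x axis) of the 34 measured microglial genes (y axis, grouped by role between dotted lines) on each array, red circles for the 2 ketamine-titled arrays and open squares for the 2 saline-titled arrays, with a grey line joining the group means. The red circles lie left of the squares for 29 genes, and Itgb5 and Runx1 show the reverse order without overlap.

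Receptors and surface proteins widely used as markers of microglia were lower. Cx3cr1, the fractalkine receptor, read 6.73 and 6.81 on the ketamine-titled arrays, against 7.72 and 7.81 on the saline-titled arrays. Its log2 difference was -0.995 ± 0.107 (SE), a ratio of 0.502 (adjusted p = 0.000716 in limma). Both ketamine-titled arrays lay below both saline-titled arrays by more than the arrays of a group differed.
Tmem119, a membrane protein that separates microglia from other macrophages, read 6.19 and 6.34 on the ketamine-titled arrays, against 7.12 and 6.98 on the saline-titled arrays. Selplg, the selectin ligand PSGL-1 and the next protein-coding gene to Tmem119 on chromosome 5, read 5.91 and 6.31 under the ketamine title, against 7.09 and 7.22 under the saline title. The groups were apart for both, at log2 differences of -0.78 for Tmem119 (adjusted p = 0.00283 in limma) and -1.04 for Selplg (adjusted p = 0.0026 in limma).
P2ry12, the ADP receptor that guides microglial processes, read 5.21 and 5.33 under the ketamine title, against 5.72 and 5.59 under the saline title, and P2ry13, a related ADP receptor in the gene next to it on chromosome 3, read 6.36 and 6.47 under the ketamine title, against 7.49 and 7.32 under the saline title. Both were lower, P2ry12 by a log2 difference of -0.38 (95% interval -0.65 to -0.12) and P2ry13 by -0.99 (-1.26 to -0.72). The call of P2ry12 (adjusted p = 0.0384 in limma) was lost with a trend in limma and when adjusted over all rows of the table. That of P2ry13 was kept in both. Gpr34, a receptor for lysophosphatidylserine, read 3.58 and 4.08 on the ketamine-titled arrays, against 4.63 and 4.51 on the saline-titled arrays. On the ketamine-titled arrays it lay under the 95th percentile of olfactory receptor rows (4.56 and 4.46), taken as the level of dim rows, so that the size of its difference of -0.74 (-0.49 without ketamine-titled array 1) is not resolved.

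The C1q chains, which start the classical complement pathway and mark synapses for removal, were lower together. C1qa read 7.14 and 7.36 on the ketamine-titled arrays, against 8.02 and 8.08 on the saline-titled arrays. C1qb read 6.25 and 6.36 under the ketamine title, against 7.37 and 7.29 under the saline title, and C1qc 6.42 and 6.75 under the ketamine title, against 7.31 and 7.33 under the saline title. The log2 differences were -0.80 for C1qa, -1.02 for C1qb and -0.74 for C1qc, with adjusted p of 0.00284, 0.000691 and 0.00635 in limma. The 3 genes follow one another on chromosome 4, and their 95% intervals overlapped.
Of 14 measured complement genes other than C1q, 3 were lower (21.4%) and 3 higher, with a median of -0.10. Of all rows, 9.71% were lower and 23.4% higher. Csmd1 and Csmd2, which encode complement-inhibiting membrane proteins made by neurons, were lower at log2 differences of -1.35 and -0.58. Serping1, the inhibitor of the C1 proteases, was higher by 1.15 and Cd59a, which blocks the terminal pore, by 0.80. Of these inhibitors, Csmd1 and Csmd2 thus had the direction of the C1q chains, and Serping1 and Cd59a the opposite one.

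Growth factor and TGF-beta receptors were also lower. Csf1r read 7.22 and 7.53 on the ketamine-titled arrays, against 8.23 and 8.13 on the saline-titled arrays, a log2 difference of -0.81 ± 0.13 (SE; adjusted p = 0.00448 in limma). Of the 2 ligands of this receptor, Il34, known in the mouse forebrain mainly from neurons, read 6.26 and 6.19 under the ketamine title, against 8.04 and 8.10 under the saline title. Csf1 averaged 5.95 ± 0.07 on the ketamine-titled arrays, against 5.85 ± 0.09 on the saline-titled arrays (SD, n = 2 each), with overlapping groups. The log2 difference was -1.84 for Il34 (95% interval -2.10 to -1.59) and 0.10 for Csf1 (-0.16 to 0.36), and the contrast between the ligands was not tested.
Cx3cl1, the neuronal fractalkine that CX3CR1 binds, read 7.76 and 7.92 on the ketamine-titled arrays, against 9.80 on both saline-titled arrays, a log2 difference of -1.96. Cd200, a neuronal ligand that restrains microglia, had a difference of -0.96. Il34, Cx3cl1 and Cd200 were the 3 of 13 ligand and ligand-handling genes that were lower, none was higher, and the median of the list was -0.06. The share lower was 23.1%, against 9.71% of all rows, where 23.4% were higher. Itgb8, an integrin chain that takes part in activating TGF-beta, had 0.33 and did not pass. Cx3cl1 and Il34 were lower on the same arrays as the forebrain neuron markers, and the part of neurons in this was not tested.
Tgfbr1, a TGF-beta receptor chain, read 6.72 and 7.03 under the ketamine title, against 7.40 and 7.34 under the saline title, a log2 difference of -0.50. Its ligand genes Tgfb1, Tgfb2 and Tgfb3 had differences of -0.23, -0.06 and 0.28, and did not pass. Mertk, a receptor for engulfment of dying cells, read 6.53 and 6.43 under the ketamine title, against 7.26 and 7.05 under the saline title, a difference of -0.67, while its ligands Gas6 and Pros1 were at 0.31 and 0.01 and did not pass. Csf3r, the G-CSF receptor, read 4.59 and 4.47 under the ketamine title, against 5.09 and 4.99 under the saline title, a difference of -0.51. On the ketamine-titled arrays Csf3r lay close above the level of dim rows (4.56 and 4.46). The 4 receptors were therefore lower with no overlap between groups, which held for 21.5% of all rows. Of the ligand genes named for Csf1r, Tgfbr1 and Mertk, Il34 alone passed.

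**Figure D2:**
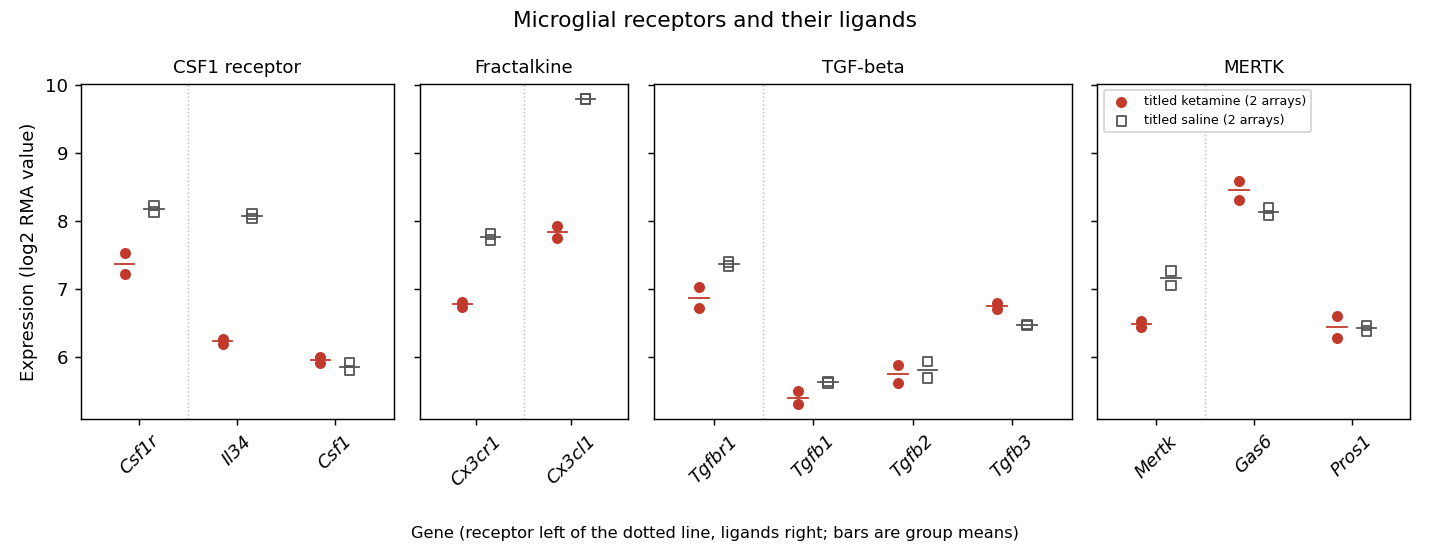
Log2 expression (y axis) of 4 microglial receptors and genes of their ligands (x axis, receptor left of the dotted line in each panel) on the 2 ketamine-titled arrays (red circles) and the 2 saline-titled arrays (open squares), with bars at the group means. Csf1r, Cx3cr1, Tgfbr1 and Mertk lie lower on the ketamine-titled arrays, as do Il34 and Cx3cl1, whereas Csf1 overlaps between the groups.

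Among activating receptors and their adaptors, the direction was not shared by all. Fcer1g, the common gamma chain of Fc receptors, read 5.07 and 5.52 on the ketamine-titled arrays, against 6.17 and 6.25 on the saline-titled arrays, a log2 difference of -0.92 ± 0.16 (SE; adjusted p = 0.00514 in limma). Tyrobp, the adaptor of TREM2, read 5.36 and 5.47 under the ketamine title, against 5.87 and 5.83 under the saline title, a difference of -0.43 (adjusted p = 0.021 in limma). Fcgr3, an activating Fc receptor for IgG, read 4.25 and 4.26 under the ketamine title, against 5.05 and 4.67 under the saline title, a difference of -0.61. It lay at the level of dim rows on both ketamine-titled arrays, so that the size of this difference is not resolved. The adaptor genes and Fcgr3 were thus lower without overlap.
Trem2, the lipid-sensing receptor that signals through TYROBP, read 5.99 and 6.01 on the ketamine-titled arrays, against 5.80 and 6.01 on the saline-titled arrays. The groups overlapped, and the log2 difference was 0.09 (95% interval -0.18 to 0.37; -0.0464 after quantile normalization and -0.0432 after centring). Ptprc, the pan-leukocyte phosphatase CD45, read 5.09 and 5.31 under the ketamine title, against 5.23 and 5.16 under the saline title, also overlapping, with a difference of 0.0028 (95% interval -0.28 to 0.29; -0.14 and -0.13 after the same scalings). Siglech, a sialic acid-binding lectin, read 5.28 and 5.50 under the ketamine title, against 5.72 and 5.77 under the saline title with a difference of -0.35 that did not pass (adjusted p = 0.0601 in limma). It passed after quantile normalization (-0.49, adjusted p = 0.0181 in limma) and after centring (-0.49, adjusted p = 0.0165 in limma).

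Integrins, adhesion and membrane proteins held both the lower and the higher calls. Itgam, the CD11b chain of complement receptor 3, read 5.43 and 5.70 on the ketamine-titled arrays, against 6.44 and 6.54 on the saline-titled arrays, a log2 difference of -0.93. Cd53, a tetraspanin of leukocytes, read 6.46 and 6.65 under the ketamine title, against 7.62 and 7.50 under the saline title, a difference of -1.005 or a ratio of 0.498. Ly86, the MD-1 partner of a Toll-like receptor homologue, read 7.02 and 7.62 under the ketamine title, against 8.05 and 8.17 under the saline title, a difference of -0.79 (-0.49 without ketamine-titled array 1 and -1.08 without array 2). Each had groups that did not overlap, and of these Ly86 varied most between the ketamine-titled arrays.
Itgb5, the beta chain of the vitronectin receptor, was the 1 gene that was higher. It read 8.59 and 8.65 on the ketamine-titled arrays, against 7.97 and 7.88 on the saline-titled arrays, a log2 difference of 0.70 ± 0.11 (SE; adjusted p = 0.00326 in limma). Itgb5 is also expressed outside microglia. Its difference lay above the median of all rows, and it kept its call after quantile normalization and after centring.

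Lysosomal and phagocytic genes were lower apart from Mpeg1. Laptm5, a lysosomal membrane protein of blood-lineage cells, read 6.99 and 7.57 on the ketamine-titled arrays, against 8.34 on both saline-titled arrays, a log2 difference of -1.06 ± 0.19 (SE; adjusted p = 0.00558 in limma). Cd68, a lysosomal glycoprotein of macrophages, read 5.60 and 5.85 under the ketamine title, against 6.71 and 6.72 under the saline title, a difference of -0.99. Ctss, the protease cathepsin S, read 9.11 and 9.39 under the ketamine title, against 9.87 and 9.75 under the saline title, a difference of -0.56. For these genes ketamine-titled array 2 stood closer to the saline-titled arrays than array 1 did.
Mpeg1, a pore-forming protein of macrophages, read 5.45 and 6.13 on the ketamine-titled arrays, against 5.90 and 6.28 on the saline-titled arrays. The groups overlapped, with a log2 difference of -0.30 (95% interval -0.84 to 0.25), and without ketamine-titled array 1 the difference was 0.041.

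Of the transcription factors, Sall1, which keeps microglia distinct from other macrophages and is also expressed in other brain cells, was lower. It read 5.99 and 6.03 on the ketamine-titled arrays, against 6.48 and 6.30 on the saline-titled arrays, a log2 difference of -0.38 (adjusted p = 0.0403 in limma). Irf8 read 5.30 and 5.19 under the ketamine title, against 5.43 and 5.68 under the saline title, a difference of -0.31 that did not pass (adjusted p = 0.0979 in limma). Irf8 passed after quantile normalization (-0.46, adjusted p = 0.0236 in limma) and after centring (-0.45, adjusted p = 0.0272 in limma), and was at -0.19 without saline-titled array 2. Runx1 read 4.80 and 4.76 under the ketamine title, against 4.58 and 4.50 under the saline title, a difference of 0.24 that did not pass (adjusted p = 0.128 in limma). Spi1 read 4.21 and 4.28 under the ketamine title, against 4.40 and 4.89 under the saline title, a difference of -0.40 (adjusted p = 0.108 in limma). Spi1 was dim on both ketamine-titled arrays, so that the size of its difference is not resolved. The groups did not overlap for these 4 genes. Of all rows, 21.5% were lower without overlap and 48.4% were higher without overlap, the direction of Runx1.
The remaining microglial proteins were all lower. Aif1, the calcium-binding protein IBA1 used to stain microglia, read 4.79 and 4.87 under the ketamine title, against 5.68 and 5.70 under the saline title, a log2 difference of -0.86 ± 0.11 (SE; adjusted p = 0.00121 in limma). Slc2a5, a fructose transporter, read 4.82 and 5.15 under the ketamine title, against 5.90 and 5.98 under the saline title, a difference of -0.95. Olfml3, a secreted olfactomedin-like protein, read 6.82 and 6.95 under the ketamine title, against 7.70 and 7.72 under the saline title, a difference of -0.82. Hpgds, the hematopoietic prostaglandin D synthase, read 5.15 and 5.26 under the ketamine title, against 5.49 and 5.80 under the saline title, a difference of -0.44 (-0.29 without saline-titled array 2).

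**Figure D3:**
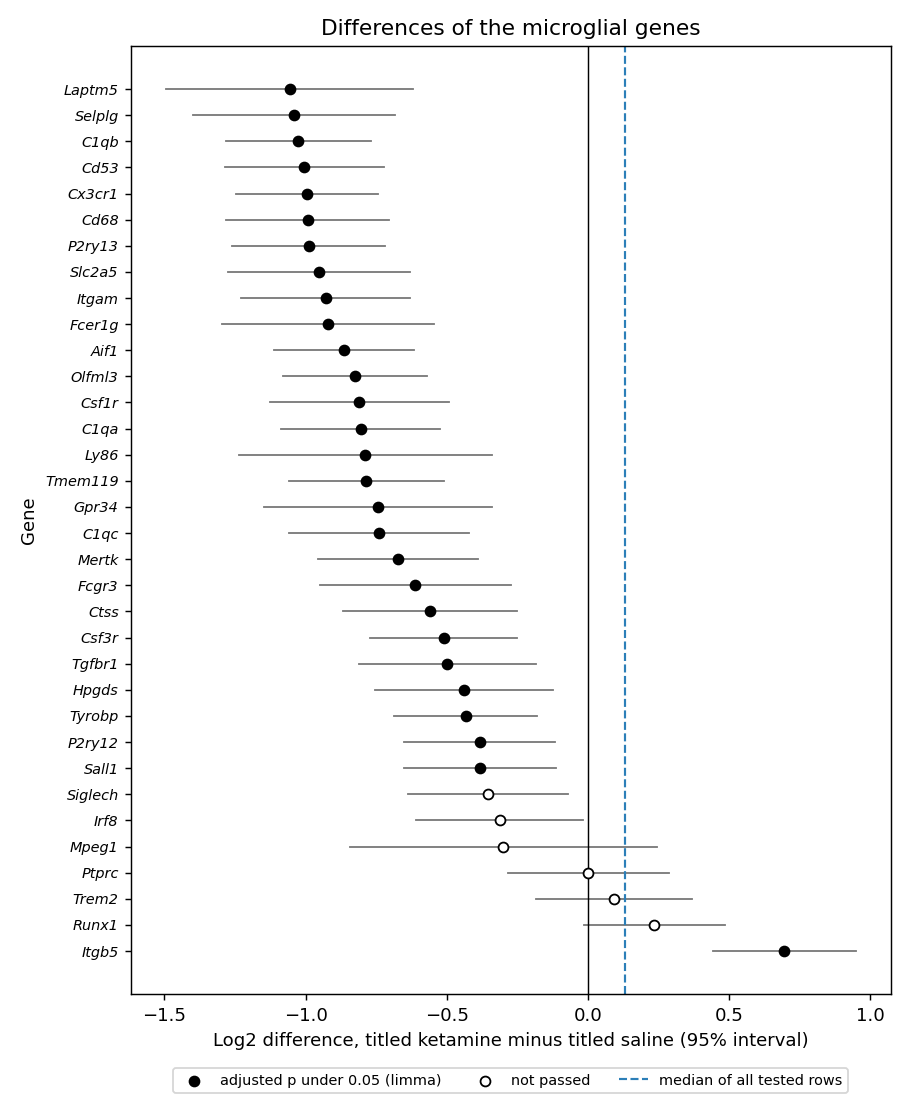
Log2 difference of ketamine-titled minus saline-titled arrays (x axis, points, with 95% intervals from limma as bars) for the 34 measured microglial genes (y axis, ordered by difference), filled where the adjusted p was under 0.05. The dashed line marks the median of all rows tested at 0.13, and only Runx1 and Itgb5 have points to its right.

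The promoters of 28 of the 35 genes were found in the RefSeq table of the GRCm38.p6 build, as 35 windows from 250 bases before to 50 bases after a transcript start. They were read for letters that PU.1 and IRF8 are known to bind. The letters GAGGAAGT, an ETS sequence of the PU.1 type, stood on either strand in 4 of these 35 windows (11.4%), and in 3.20% of all 32851 windows. The composite ETS-IRF letters GGAANNGAA stood in 3 windows (8.57%), of Cd68, Ctss and Runx1, and in 8.24% of all windows. The 4 windows with GAGGAAGT belonged to Ctss, Cd53, C1qc and Hpgds. Each was lower on the ketamine-titled arrays, as were 27 of all 34 measured microglial genes. For each, 100 bases around the match are shown on the strand of the gene, with the match in capitals.
Ctss (chr3:95526736-95526835, plus strand): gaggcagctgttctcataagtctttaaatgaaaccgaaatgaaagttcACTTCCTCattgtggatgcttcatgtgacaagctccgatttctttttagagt
Cd53 (chr3:106790100-106790199, minus strand): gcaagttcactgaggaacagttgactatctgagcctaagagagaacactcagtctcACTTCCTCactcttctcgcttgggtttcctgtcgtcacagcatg
C1qc (chr4:136893056-136893155, minus strand): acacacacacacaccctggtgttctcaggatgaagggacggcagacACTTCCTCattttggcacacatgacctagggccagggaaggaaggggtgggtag
Hpgds (chr6:65144726-65144825, minus strand): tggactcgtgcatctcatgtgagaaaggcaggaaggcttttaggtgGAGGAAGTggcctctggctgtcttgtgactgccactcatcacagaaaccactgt
In Ctss, Cd53 and C1qc the match lies on the opposite strand and so reads ACTTCCTC here. It spans positions -2 to 6 from the transcript start in Ctss, 7 to 14 in Cd53, -195 to -188 in C1qc and -49 to -42 in Hpgds. In Ctss it overlaps the ETS-IRF letters. A match is a description of letters, and Cx3cr1 and C1qb, whose windows lack it, were lower as well.

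The 2 ketamine-titled arrays differed from each other in these genes. On array 2 compared with array 1, 30 of the 34 genes read higher, by a median of 0.17 on the log2 scale, where 49.0% of all rows read higher and the median was -0.0021. Between the saline-titled arrays, 16 of the 34 read higher on array 2, by a median of -0.019. The largest such differences on the ketamine-titled arrays were those of Mpeg1 (0.68), Ly86 (0.59), Laptm5 (0.58) and Gpr34 (0.50).
Csf3r, Mertk, Irf8 and Runx1 were the 4 that read lower on ketamine-titled array 2. The oligodendrocyte list moved with this, reading higher on ketamine-titled array 2 for 11 of 12 genes with a median of 0.28 (log2 summed level 12.43 on array 1 and 12.75 on array 2). The choroid plexus list did so for 7 of 8 genes with a median of 0.21 (12.09 and 12.48). Antigen presentation genes (7 of 8, median 0.21), interferon response genes (11 of 14, 0.21) and the ligand list (10 of 13, 0.16) did so too. Other lists did so less or not, among them the astrocyte list (7 of 12, 0.017) and the endothelial list (5 of 11, -0.093). The forebrain neuron list did so for 6 of 10 genes with a median of 0.043 (log2 summed level 9.68 on array 1 and 10.20 on array 2). The cerebellar list did so for 2 of 12 with a median of -0.20 (13.98 and 13.87). A longer microglial list, given below, read higher on array 2 for 33 of 50 genes in each group. The part of any list in the spread of the microglial genes was not tested.

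**Figure D4:**
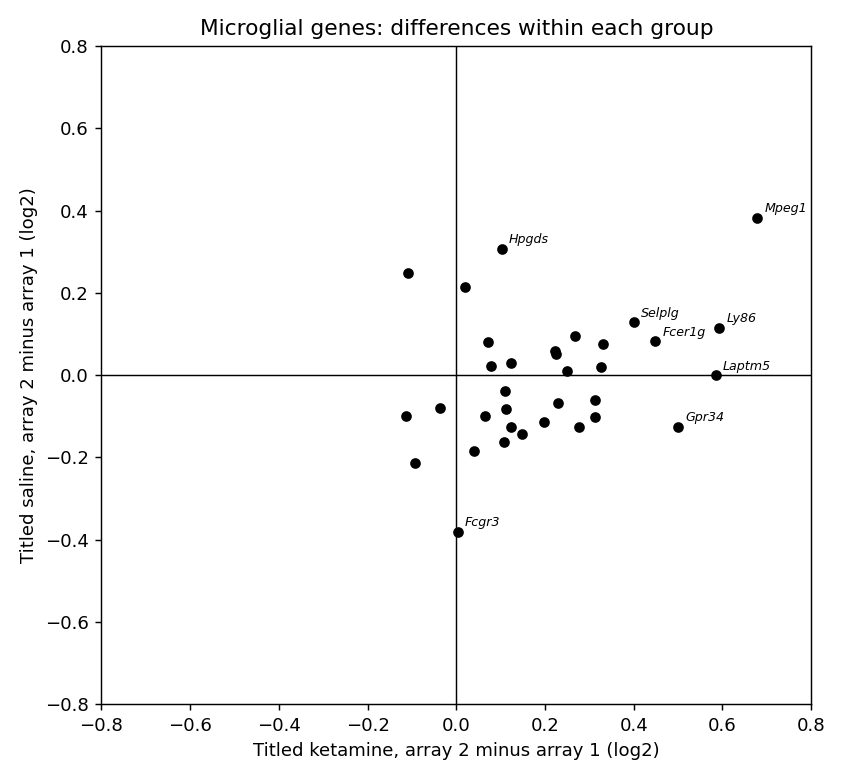
Difference between array 2 and array 1 on the log2 scale within the group titled ketamine (x axis) and within the group titled saline (y axis), each point being 1 of the 34 measured microglial genes. The points of 30 genes lie right of the vertical zero line and 16 above the horizontal one, with Mpeg1 at 0.68 and 0.38.

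A longer list held microglial genes beyond the 35. Of 50 measured, 11 were lower, 1 was higher and 38 did not pass, with a median of -0.25 (24 lower after quantile normalization and 24 after centring). Of all 21789 rows, 3074 and 3213 were lower under these scalings. Whether passed or not, 42 of the 50 differences were negative and 8 positive. The groups did not overlap for 30 genes that were lower and 4 that were higher, against 21.5% and 48.4% of all rows. On all arrays 2 of the 50 were dim, and 10 were dim on 1 array or more. Fcrls, an Fc receptor-like gene of mouse microglia, read 4.65 and 4.63 on the ketamine-titled arrays, against 6.10 and 6.09 on the saline-titled arrays, a log2 difference of -1.46. Blnk, an adaptor of immunoreceptor signaling, was lower at -1.36 and Nckap1l, the hematopoietic WAVE complex subunit, at -0.75. Sla, a Src-like adaptor also present in other cells, was higher, with 8.08 and 7.94 under the ketamine title, against 5.92 and 6.11 under the saline title. By calls, the direction of the 35 genes was thus found in part of this longer list, where 22.0% passed as lower, against 9.71% of all rows.
Genes of the disease-associated state of microglia were spread about zero. Of 19 measured, 2 were lower, 1 was higher and 16 did not pass, with a median of 0.01. On all arrays 4 of the 19 were dim, and 6 were dim on 1 array or more. Which cells the values of this list come from was not tested. The share lower, 10.5%, was near the 9.71% of all rows, where 23.4% were higher. Lpl, a lipoprotein lipase that neurons also express, read 4.64 and 4.37 under the ketamine title, against 7.20 and 7.22 under the saline title, Ch25h, a cholesterol hydroxylase, was called lower but dim on all arrays, and the protease gene Ctsl was higher at 0.33. The call of Ctsl was lost after quantile normalization, after centring and without any 1 array. Cd9, a tetraspanin, had 0.35 and did not pass. Of 17 inflammatory mediators, 2 were lower and 3 higher, 8 being dim on all arrays, with a median of 0.22. Their share lower, 11.8%, was also near that of all rows. After quantile normalization, and likewise after centring, 4 mediators were lower and 0 higher. Ptgs2, a cyclooxygenase that cortical neurons express, read 5.07 and 4.80 under the ketamine title, against 7.14 and 7.14 under the saline title, and Il18, a cytokine, was lower at -0.55. Of the chemokines, Ccl5 was higher at 0.46, a call lost under both scalings, and Ccl3, dim on 3 arrays, did not pass.
Markers of border macrophages and of blood cells had median differences of -0.013 and 0.21. Among 11 markers of border macrophages, 2 were lower and 1 higher in limma, 4 were dim on all arrays, and the log2 summed level was 8.04 and 7.99 on the ketamine-titled arrays, against 8.02 and 8.07 on the saline-titled arrays. F13a1, a coagulation factor chain, was lower at a log2 difference of -0.45. Ms4a7, called lower, and the chemokine gene Ccl24, called higher, were dim on all arrays, and the call of Ccl24 was lost under both scalings. Pf4, a platelet factor dim on 2 arrays, did not pass. Of 10 markers of blood leukocytes and red cells, 1 was lower (Cd3d of T cells, itself dim on all arrays) and 1 higher (Alas2 of red cells, at 0.57, a call lost under both scalings), 7 were dim on all arrays, and the log2 summed level was 7.63 and 7.62 under the ketamine title, against 7.40 and 7.32 under the saline title. Of the border macrophage and blood cell lists, 18.2% and 10% were lower, against 9.71% of all rows, where 23.4% were higher. The difference between these lists and the microglial genes was not tested.
The counts that follow stand beside 23.4% of all rows higher and 9.71% lower. Of 12 astrocyte markers 6 were higher and 1 lower (median 0.39), among them S100b at 1.40. Of 12 oligodendrocyte markers 1 was higher and 1 lower (median 0.04), where Pdgfra, a receptor of their precursors, was the lower one at -0.74. Of 11 endothelial markers 3 were higher (median 0.34; 1 after quantile normalization and 1 after centring) and of 8 choroid plexus markers 7 (median 0.80), among them Emcn at 0.81 and Kcne2 at 1.29.

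**Figure D5:**
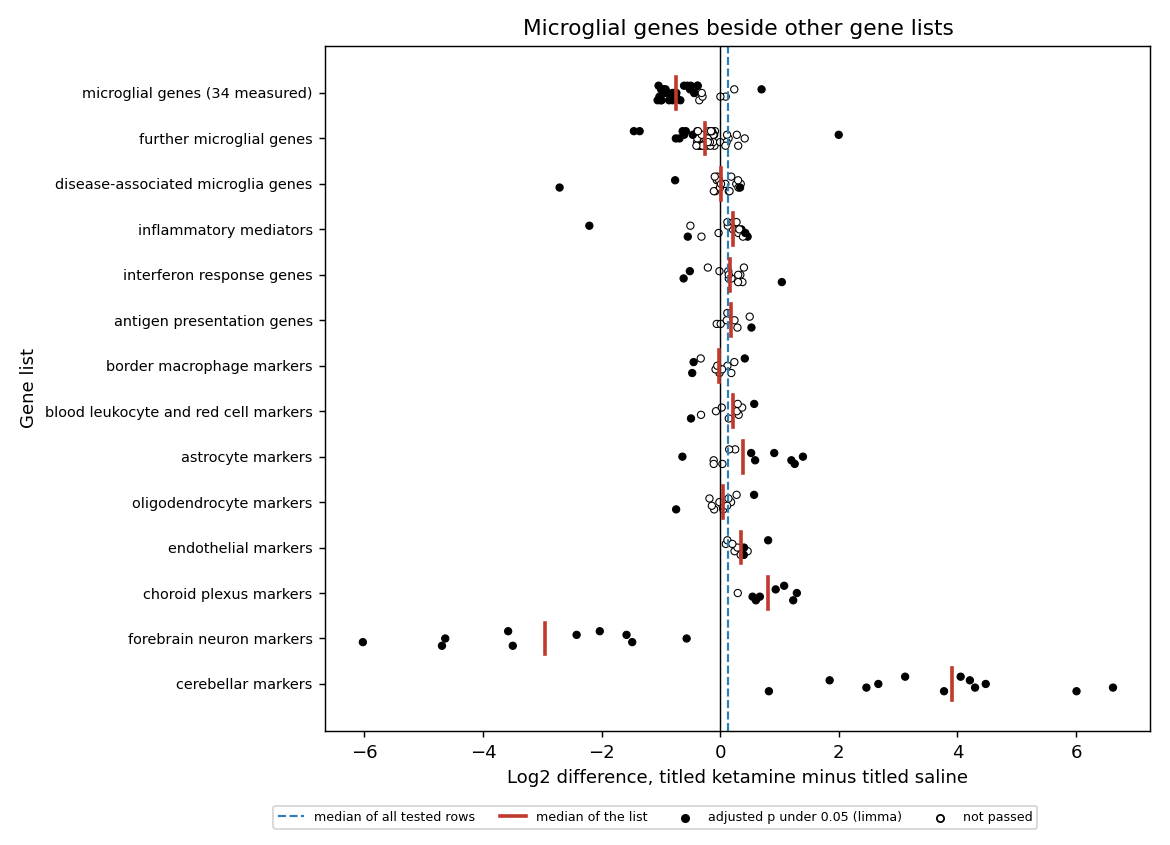
Log2 difference of ketamine-titled minus saline-titled arrays (x axis) for the genes of 14 lists (y axis), filled where the adjusted p from limma was under 0.05, with the median of each list as a red bar and the median of all rows as a dashed line. The microglial genes have a median of -0.74, the forebrain neuron markers -2.96 and the cerebellar markers 3.91.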

How the data were processed

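RNA of 4 samples was hybridized to Mouse Gene 1.0 ST arrays. The deposited values are on the log2 scale, per the labels from RMA on core exons (Affymetrix Expression Console). The version of this console and the genome build were not found in the sources. Because RMA equalizes probe values between arrays, part of any shift common to most genes is taken out.

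Gene names came from the platform annotation. Of 35556 rows, the 21789 with exactly 1 symbol were tested in R (version 4.3.3) with limma (version 3.58.1), by lmFit and eBayes without trend, with Benjamini-Hochberg adjustment over these rows and a threshold of 0.05. The p-values measure the spread between arrays, which may be technical. Rows were called dim under the 95th percentile of 1035 olfactory receptor rows on an array. Named genes are all measured members, Csf1, Il34, Cx3cl1, Tgfb1, Spi1, Cbln3 and Tbr1, and up to 4 genes of each other list with the largest absolute difference. Tgfb2, Tgfb3, Gas6 and Pros1 were named after their values were seen, to complete the ligands. The members and lists were chosen with earlier results of these data known. The fit was tested on simulated data. The alternatives were other scalings, filters, adjustments and models, and each array left out.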

Additional observations from a re-analysis of the deposited data

How the results depend on the processing

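The count of 27 microglial genes lower became 29 after quantile normalization and after centring, and 18 when adjusted over all 35556 rows. It was 26 with a trend in limma and 0 in a linear model without moderation, which passed 34 rows lower and 47 higher in all, and 4 past 2-fold. Adjusting over all rows lost 9 calls, those of P2ry12, Gpr34, Tgfbr1, Tyrobp, Fcgr3, Ly86, Ctss, Sall1 and Hpgds. With a trend, the 1 call lost was that of P2ry12. The count of 1 higher became 0 in the model without moderation and past 2-fold. With 1 array left out, the number lower ranged from 0 to 16 and the number higher from 0 to 1. Both were 0 without either ketamine-titled array. The genes not overlapping and higher numbered 1 after quantile normalization. The median difference was -0.88 after quantile normalization, -0.88 after centring and -0.81 over genes at or above the median level, and it ranged from -0.87 to -0.59 with 1 array left out. The causes were not tested. Directions turned for 3 genes that did not pass. Trem2 was at -0.0464 after quantile normalization and -0.0432 after centring, and ranged from -0.0136 (without saline-titled array 1) to 0.199 with 1 array left out. Ptprc was at -0.14 and -0.13, and ranged from -0.11 (without ketamine-titled array 2; -0.031 without saline-titled array 2) to 0.117. Mpeg1 ranged from -0.64 to 0.041 (without ketamine-titled array 1). Same-numbered arrays deviated with a correlation of 0.034 over rows, which cannot decide whether they share more than a number. With the replicate block 28 genes were lower and 1 higher, Siglech passing (adjusted p = 0.0409 in limma). All 4 arrays entered every fit except those that left 1 out, and 2 arrays a group limit the precision.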

Other observations

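Of 14 interferon response genes measured, 2 were lower on the ketamine-titled arrays, 1 was higher and 11 did not pass in limma, with a median log2 difference of 0.17. The share lower was 14.3%, against 9.71% of all rows, where 23.4% were higher. Stat2, a transcription factor of interferon signaling, read 7.72 and 7.54 on the ketamine-titled arrays, against 6.58 and 6.60 on the saline-titled arrays. Ifit2, an interferon-induced gene, was lower at -0.62, Mx2 was called lower but dim on all 4 arrays, and Bst2 had 0.40 and did not pass. Of 8 antigen presentation genes none was lower, 1 was higher and 7 did not pass, with a median of 0.18. Ciita, the activator of MHC class II genes, was higher at 0.53 and dim on both saline-titled arrays, a call lost after quantile normalization, and H2-Ab1, an MHC class II chain, had a difference of 0.50 that did not pass (adjusted p = 0.127 in limma). H2-Aa and B2m had 0.24 and 0.29 and did not pass either.

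Rows named for both Itgam and the ribosomal protein gene Rpl35 numbered 3 and were left out for that reason. Their log2 differences were 0.038, 0.087 and 0.020, whereas the row named Itgam alone had -0.93. Which transcripts these rows read was not tested.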
